A study of Mus musculus with 4 samples.

Results

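In these RNA-seq data of E13.5 retinas, 38 genes for ribosome biogenesis and RNA polymerase I (Pol I) were compared between mutant and wildtype libraries. The genes were chosen by symbol as factors of ribosomal RNA (rRNA) synthesis and processing together with *Myc* and *Mycn*, and all 38 were found among the 24062 genes of the count table. All embryos were of a mixed C57BL/6 and 129 background. The control group held 2 libraries of wildtype retinas. The mutant group held 2 libraries of *Nrf1* f/f;Six3-Cre retinas, named Nrf1-CKO in the labels, in which Cre under Six3 control removes the floxed *Nrf1* exon in retinal progenitor cells (RPCs), beginning in the central retina, so that cells outside the Six3-Cre domain keep the gene. RNA of each library was pooled from retinas of several littermates, so the p-values below measure the spread between pools and not between embryos.

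Ribosomes begin in the nucleolus, where Pol I transcribes a long precursor rRNA from the ribosomal DNA repeats. The selectivity factor that contains Taf1b, Taf1c and Taf1d, the architectural factor Ubtf and the initiation factor Rrn3 bring Pol I to the promoter. Small nucleolar ribonucleoproteins (snoRNPs) then guide methylation and pseudouridylation of the precursor, and separate groups of assembly factors build the small and the large subunit. The transcription factors Myc and Mycn are known to raise the transcription of many of these genes, and dividing progenitors of neural tissue depend on a high output of ribosomes.

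Reads on genes came to 85933945 and 74577660 in wildtype and 83540824 and 83425985 in mutant libraries. *Nrf1* itself was counted 9052 and 7789 times in wildtype and 8594 and 8284 times in mutant replicates 1 and 2. The log2 fold change (log2FC) of *Nrf1* was -0.03 (standard error, SE, of 0.07, adjusted p = 0.794 from the quasi-likelihood test of edgeR, with Benjamini-Hochberg adjustment), and a count over the whole gene cannot show the loss of a single exon. A gene was taken as called where it changed 1.4-fold or more at an adjusted p no higher than 0.2. Markers of retinal and other cells differed between the genotypes. Of the lists of retinal ganglion cell, retinal progenitor and photoreceptor precursor markers, 8 of 8, 2 of 10 and 2 of 4 were called lower in mutant libraries. Of the lens, macrophage, pigment epithelium, periocular mesenchyme and endothelium markers tested, 6 of 7, 6 of 7, 4 of 5, 5 of 6 and 4 of 6 were called higher, and 2 of 3 of the erythroid markers. The endothelial receptor gene *Kdr* was called lower. In bulk RNA, fewer cells of a type and less RNA per cell cannot be told apart.

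The promoters show which of these genes carry letters known to be read by Nrf1 or by Myc. RefSeq sequences on GRCm38.p6, from 250 bases before to 50 bases after the start of transcription, matched 32 of the 38 genes. Genes such as *Ubtf* have several listed starts, and a gene was counted where any of its promoters held the motif. Positions count from the start of that promoter, with negative values before it. *Fbl*, *Myc*, *Npm1*, *Bop1*, *Tcof1* and *Rrp12* had no entry. Both strands were searched for the Nrf1 core GCGCATGCG, for the same core with a free base, GCGCANGCG, which includes the first motif, and for the E-box CACGTG, the palindrome bound by Myc and Max. The core was found for 1 of the 32 genes (3.13%), *Ubtf*, against 1.95% of the 27025 genes with a promoter. Counted by promoter, a unit not used for the 32 genes, the share was 1.75% of 32851. The core with a free base was found for 7 genes (21.9%), against 7.03% of all genes (6.25% by promoter). These were *Ncl*, *Nop10*, *Nop2*, *Rrp9*, *Ubtf*, *Wdr12* and *Wdr43*. The E-box was also found for 7 genes (21.9%), against 8.09% of all genes (7.15% by promoter). These were *Ltv1*, *Nop2*, *Pes1*, *Rrn3*, *Tsr1*, *Utp20* and *Wdr43*. The promoters of the 32 genes had a median GC content of 58.0% and those of all genes 52.8%. Base composition bears on how often such letters occur. The stretches around some matches are shown on the strand of the gene, with the matched letters in capitals, because the fold changes of these genes are described further on.
*Ubtf*, chr11:102316657-102316686, minus strand, Nrf1 core at base 31 after the start: ggcaggggaggGCGCATGCGgcaccgcctg
*Ncl*, chr1:86359623-86359682, minus strand, core with a free base at -201: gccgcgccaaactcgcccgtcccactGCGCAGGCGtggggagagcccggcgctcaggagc
*Wdr12*, chr1:60098232-60098291, minus strand, core with a free base at -131: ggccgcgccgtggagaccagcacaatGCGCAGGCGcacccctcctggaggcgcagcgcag
*Nop10*, chr2:112261936-112261965, plus strand, core with a free base at base 22: gaaggttgttgGCGCACGCGattgaagcgg
*Nop2*, chr6:125131869-125131898, plus strand, core with a free base on the opposite strand at -3: gaccctttttgCGCTTGCGCgattcacttt
*Nop2*, chr6:125131796-125131855, plus strand, E-box at -60: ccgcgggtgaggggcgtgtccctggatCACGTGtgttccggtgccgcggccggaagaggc
*Rrn3*, chr16:13780624-13780683, plus strand, E-box at -48: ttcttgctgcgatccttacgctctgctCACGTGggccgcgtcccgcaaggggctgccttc
*Ltv1*, chr10:13193092-13193121, minus strand, E-box at base 29: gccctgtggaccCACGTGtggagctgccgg
*Tsr1*, chr11:74898092-74898121, plus strand, E-box at base 25: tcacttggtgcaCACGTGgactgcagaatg
These matches describe letters and no binding was measured.

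*Rn45s*, the entry for the precursor rRNA that Pol I makes, is the reason these genes were read together, and its share is given as a description with no test. *Rn45s* took 1170972 and 1504997 reads in the wildtype libraries, which is 1.36% and 2.02% of the reads counted on genes. In the mutant libraries it took 3378690 and 3189201 reads, or 4.04% and 3.82%. The mean share was 1.69% ± 0.463 in wildtype and 3.93% ± 0.157 in the mutant group (SD, n = 2), a ratio of 2.33. Each mutant library lay above each wildtype library. The 95% Wilson interval of the first wildtype library ran from 1.36% to 1.37%, and such intervals cover counting error only, since PCR copies are not independent molecules. *Rn45s* stands for a repeated locus, and HTSeq does not count reads that align to several places. Such alignments came to 57.2% and 57.3% of the entries in wildtype files and 54.6% and 58.0% in mutant files. These are totals over all places and do not show the reads lost at this repeat. The part of such alignments in the *Rn45s* share was not tested. No other rRNA gene of this precursor was read. A total count on this entry cannot tell precursor from mature rRNA, so the share does not measure Pol I output.

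**Figure D1:**
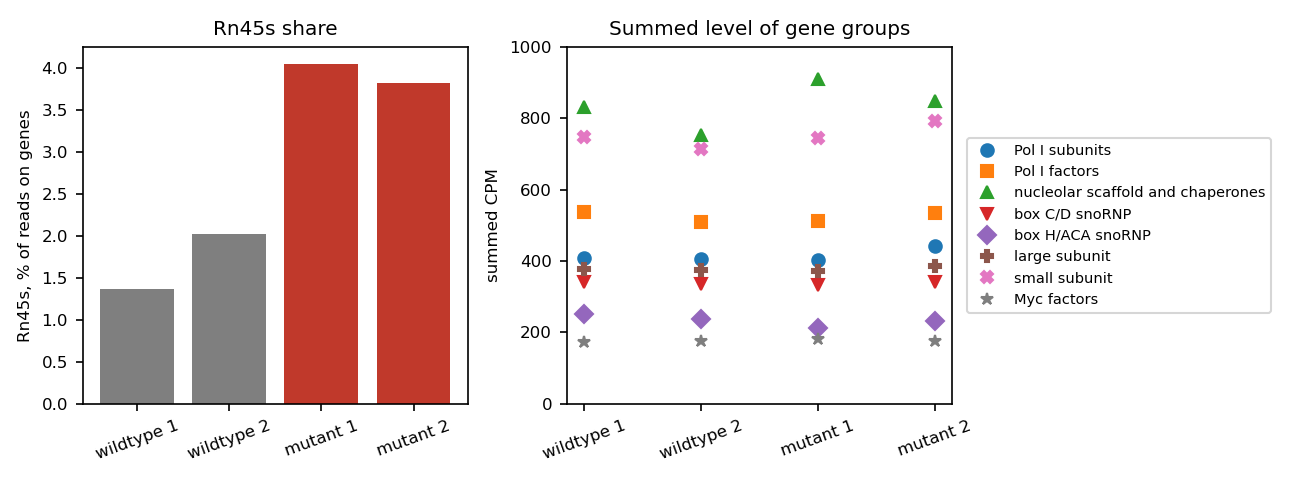
Left, the share of reads on genes taken by *Rn45s* (percent) in each of the 4 libraries, with bars from 0. Right, the summed level of the 8 functional groups of the 38 genes in the same libraries, in CPM, which are reads scaled by library size. The *Rn45s* share was 1.36% and 2.02% in wildtype and 4.04% and 3.82% in mutant libraries, and the mutant means of the groups were from 0.909 (box H/ACA) to 1.11 (nucleolar scaffold and chaperones) times their wildtype means.

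Of the 38 genes, *Myc* was the only one called in the mutant retinas. None of the 38 was called lower, against 8.04% of the 15762 genes tested, and 1 was called higher, against 12.8%. At the same adjusted p and any fold, 4 of the 38 were lower and 5 higher, against 19.5% and 20.4% of all genes tested. At an unadjusted p under 0.05 there were 6 of 38 (15.8%), against 34.8% of all genes tested. Both mutant libraries lay below both wildtype libraries for 7 of the 38 and above for 11, against 31.6% and 30.9% of all genes, and for the other 20 the groups overlapped.

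The fold changes were small and lay on both sides of 0. The log2FC was positive for 26 and negative for 12 genes, with a median of 0.04 and, without *Myc*, 0.03, where the median of all tested genes was 0.00. The interquartile range ran from -0.01 to 0.12, against -0.19 to 0.26 for all tested genes. For 17 of the 38 genes the sign turned in some other fit or without a library. Their adjusted p from edgeR was 0.473 or more, with SEs from 0.07 to 0.19. Apart from *Myc*, values reached from -0.21 (*Nop10*) to 0.29 (*Fbl*). The 95% interval of the fold change lay wholly inside 1.4-fold in both directions for 33 of the 38 (86.8%), against 46.6% of all genes. The genes outside this were *Myc*, *Fbl*, *Gar1*, *Ncl* and *Taf1c*. The 38 genes are also well expressed, with a median wildtype level of 74.4 CPM against 22.2 CPM over all tested genes, and had a median SE of 0.08 against 0.12 on the log2 scale.

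**Figure D2:**
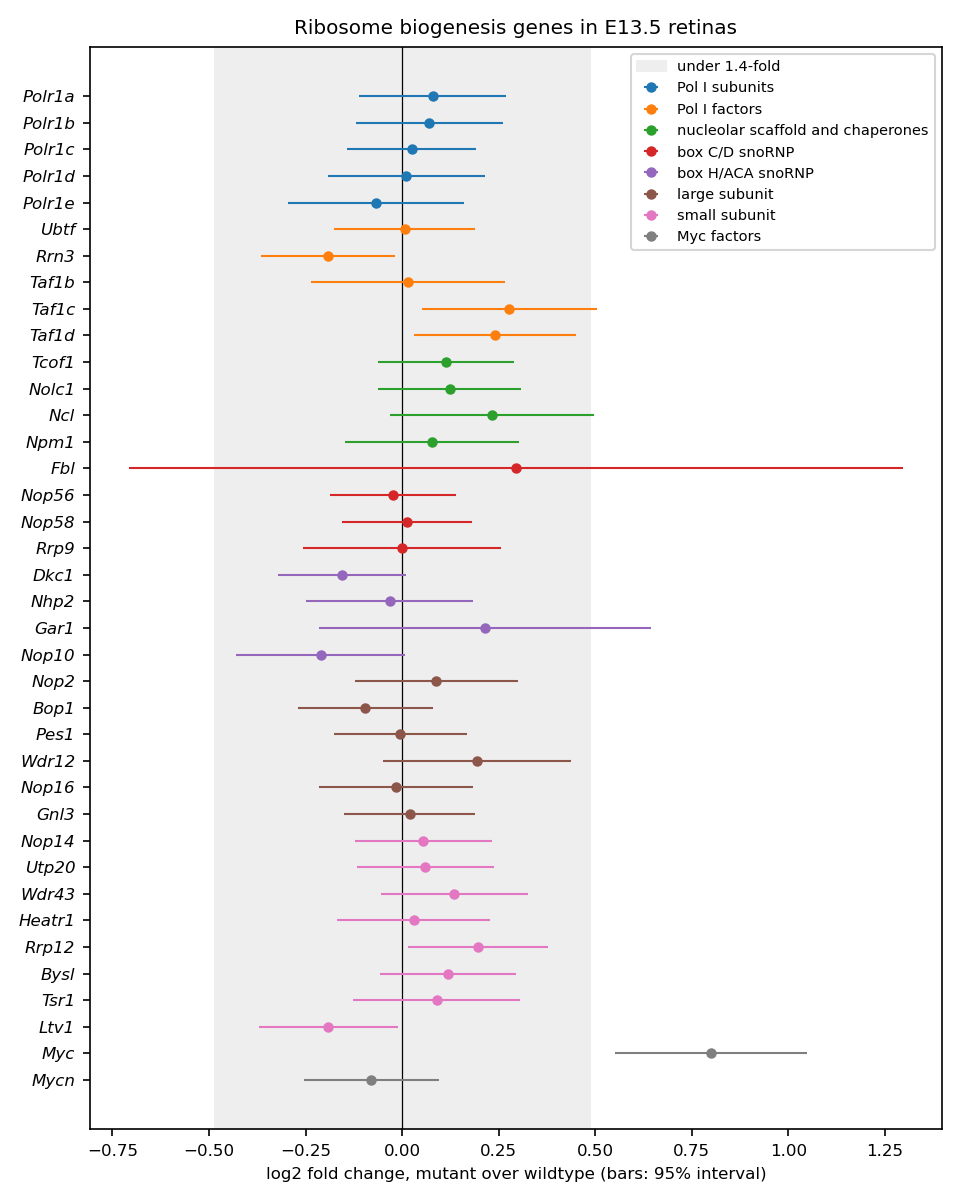
Log2FC of each of the 38 genes, mutant over wildtype, with its 95% interval as a bar and the function of the gene in colour. The grey band holds changes under 1.4-fold. *Myc* at 0.80 is the only point outside the band, and *Fbl*, which had 52 to 70 reads, has the widest interval.

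Summed over the 38 genes, the level was 3666 and 3506 CPM in wildtype and 3673 and 3753 CPM in mutant libraries. The means were 3586 ± 113 and 3713 ± 56.4 CPM (SD, n = 2), a ratio of 1.04. Library by library, the median log2 deviation of the 38 genes from their wildtype mean was 0.02 and -0.02 in wildtype and 0.01 and 0.07 in mutant replicates 1 and 2, so that the second mutant library stood higher than the first. The ratio of 1.04 for the 38 genes stands beside a ratio of 2.33 for the *Rn45s* share. How these ratios relate was not tested.

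*Myc* encodes the transcription factor that is best known for driving ribosome biogenesis and growth. *Myc* (chr15:61985391-61990374 of GRCm38, plus strand) was counted 1721 and 1273 times in wildtype and 2536 and 2780 times in mutant replicates 1 and 2. In CPM these are 19.7 and 17.2 against 30.5 and 33.6. Both mutant libraries lay well above both wildtype libraries. *Myc* rose 1.74-fold, from 18.4 ± 1.76 to 32.1 ± 2.17 CPM (SD, n = 2), a log2FC of 0.80 (SE 0.11, 95% interval 0.55 to 1.05, adjusted p = 0.00108 with edgeR's quasi-likelihood test). Per length, on the exons of GENCODE vM21, this is 6.77 and 11.8 RPKM. Leaving out 1 library at a time gave values from 0.71 to 0.91. Tested against a fold of 1.4 in place of 0, the adjusted p from edgeR was 0.0310. Several lists of markers of other cells were also higher in the mutant libraries. The summed lens markers were at 123 and 332 CPM in wildtype and 7021 and 2832 CPM in mutant libraries, so they were highest in the mutant library in which *Myc* was the lower. The summed macrophage markers, at 74.6 and 67.4 against 205 and 250 CPM, and those of the pigment epithelium, at 205 and 144 against 374 and 395 CPM, were higher in the same library as *Myc*. Those of the periocular mesenchyme, at 132 and 92.3 against 222 and 196 CPM, were, like lens, highest in the mutant library with the lower *Myc*. The summed endothelium markers were at 251 and 258 against 255 and 244 CPM, a sum that is mostly *Kdr*, which was at 205 CPM in the wildtype mean and was called lower (log2FC -0.55). Of the 6 endothelium markers 4 were called higher, with a median log2FC of 1.16 over the 6. Among the pigment epithelium markers, *Rpe65* had 0 to 4 reads in every library. The part of these cells in the *Myc* result was not tested.

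*Mycn*, the family member long known for its role in retinal progenitors, did not pass the test. *Mycn* (chr12:12936093-12941914, minus strand) was at 153 and 159 CPM in wildtype and at 152 and 143 CPM in mutant libraries. The mutant values lay below the wildtype values, with a log2FC of -0.08 (SE 0.08, 95% interval -0.25 to 0.09, adjusted p = 0.516 from edgeR). The interval held no change of 1.4-fold or more in either direction. Per length, *Mycn* remained the more abundant of the pair, at 47.3 RPKM in wildtype and 44.7 RPKM in mutant libraries.

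The partners and antagonists of Myc were read beside it as a list of 9 further genes, of which none was called. *Max*, whose product pairs with Myc and Mycn on the E-box, was at 35.7 and 30.5 CPM in wildtype and at 33.0 and 31.7 CPM in mutant libraries. *Mnt*, a repressor that competes for Max, was at 42.1 and 44.8 against 53.8 and 53.05 CPM, a log2FC of 0.30 (SE 0.08, adjusted p = 0.0243 with edgeR), short of 1.4-fold. *Mycl*, the third member of the family, was at 108 and 103 against 84.7 and 83.1 CPM, with a log2FC of -0.33 (adjusted p = 0.0133 with edgeR). The antagonist genes did not share a direction. *Mxi1* and *Mxd3* had log2FCs of -0.27 and -0.34 (adjusted p of 0.0320 and 0.0693 with edgeR), and *Mxd4* had one of 0.28 (adjusted p = 0.0700). Over the 9 genes, 4 (44.4%) were lower and 2 (22.2%) higher at an adjusted p of at most 0.2 and any fold, with a median log2FC of -0.16, against 19.5% and 20.4% of all tested genes.

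**Figure D3:**
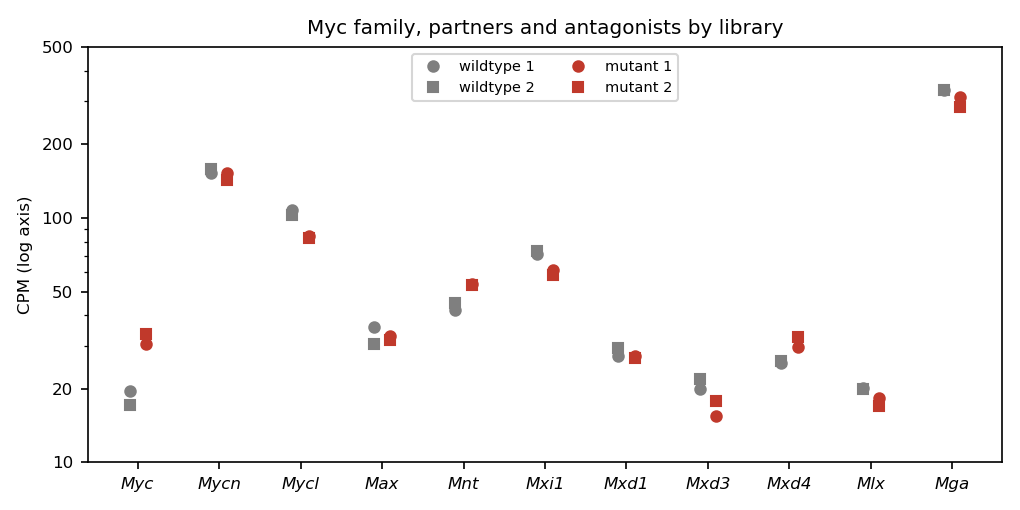
Level of *Myc*, *Mycn*, *Mycl* and 8 partner and antagonist genes in each library, in CPM on a log axis, wildtype in grey and mutant in red. *Myc* moved from 19.7 and 17.2 CPM to 30.5 and 33.6 CPM, and *Mycn* stayed between 143 and 159 CPM.

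The Pol I subunits Polr1a to Polr1e belong to the catalytic core, to the parts shared with Pol III and to a subcomplex that acts in initiation and elongation, and none of the 5 genes was called. *Polr1a*, for the largest subunit, was at 206 and 202 CPM in wildtype and at 203 and 228 CPM in mutant libraries, and the groups overlapped. Its log2FC was 0.08 (SE 0.08, adjusted p = 0.558 from edgeR). *Polr1b*, for the second largest subunit, was at 78.0 and 82.7 against 79.9 and 88.8 CPM. Both estimates were close to 0 and negative, at -0.0073 for *Polr1a* and -0.0098 for *Polr1b*, without the second mutant library. *Polr1c* and *Polr1d*, whose products also serve Pol III, had log2FCs of 0.02 and 0.01, and *Polr1e* had -0.07. *Polr1d* was at 36.8 and 33.3 against 34.9 and 35.8 CPM. All 5 genes overlapped between the groups, and their 95% intervals lay inside 1.4-fold. Their summed level was 409 and 404 CPM in wildtype and 404 and 441 CPM in mutant libraries.

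Of the 5 initiation factor genes of Pol I none was called, and their fold changes lay on both sides of 0. *Ubtf*, which shapes active ribosomal DNA and has the Nrf1 core near 1 of its starts, was at 239 and 218 CPM in wildtype and at 230 CPM in both mutant libraries, a log2FC of 0.01. *Rrn3*, which makes Pol I competent to initiate, was at 167 and 172 against 144 and 153 CPM. Both mutant values lay below both wildtype values, with a log2FC of -0.19 (SE 0.08, adjusted p = 0.107 with edgeR). *Taf1c* and *Taf1d* lay on the other side. *Taf1c* was at 35.7 and 37.3 against 40.5 and 48.0 CPM, a log2FC of 0.28 (SE 0.10, adjusted p = 0.0800 with edgeR). *Taf1d* was at 74.3 and 63.8 against 79.0 and 84.1 CPM, a log2FC of 0.24 (SE 0.09, adjusted p = 0.0985 with edgeR). These 3 genes passed the adjusted p but not the fold, and each lost that pass without some libraries. *Rrn3* lost it without the first or second wildtype or the first mutant library, with log2FCs of -0.21, -0.17 and -0.15. *Taf1c* lost it without the first or second wildtype or the second mutant library, with log2FCs of 0.25, 0.31 and 0.15. *Taf1d* lost it without the second wildtype or the second mutant library, with log2FCs of 0.14 and 0.19. The value of *Taf1d* is uncertain, since 8 snoRNA genes lie within it and 23.2% of the stretches of 50 bases in its messenger RNA (mRNA) occur in other genes. That of *Taf1c* is uncertain too, as 14.2% of its mRNA is shared, mainly with *Dnaaf1* on the opposite strand. *Taf1b* was at 21.0 and 18.5 against 20.6 and 19.4 CPM, a log2FC of 0.02. Summed over the 5 factors, the level was 537 and 510 CPM in wildtype and 513 and 534 CPM in mutant libraries, a ratio of 1.00.

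The 4 genes for nucleolar scaffolds and chaperones all had positive fold changes, and none was called. *Ncl* encodes nucleolin, a major nucleolar protein that binds the precursor rRNA, and its promoter has the core with a free base shown above. *Ncl* was at 293 and 268 CPM in wildtype and at 369 and 290 CPM in mutant libraries. The second mutant library overlapped with the wildtype range, and the log2FC of 0.23 (SE 0.12, adjusted p = 0.193 with edgeR) was 0.05 without the first mutant library. The adjusted p of *Ncl* stayed at most 0.2 in 1 of the 4 fits with a library left out, that without the second mutant library, where the log2FC was 0.39. *Tcof1* and *Nolc1*, for the related proteins treacle and Nopp140, had log2FCs of 0.11 and 0.12 (adjusted p of 0.343 and 0.325 with edgeR), with both mutant libraries above both wildtype libraries. *Npm1*, for the chaperone nucleophosmin, was at 227 and 188 against 222 and 215 CPM. Its log2FC of 0.08 was -0.05 without the second wildtype library, and 40.9% of its mRNA is shared with other genes, so its value is uncertain. The summed level of these 4 genes was 832 and 754 CPM in wildtype and 911 and 849 CPM in mutant libraries, a ratio of 1.11, the highest among the groups with a role in rRNA synthesis and processing.

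The snoRNP proteins fall into a set for box C/D RNAs, which guide methylation, and a set for box H/ACA RNAs, which guide pseudouridylation. In the C/D set, *Nop56* was at 165 CPM in both wildtype libraries and at 163 and 162 CPM in mutant libraries. *Nop58* was at 137 and 131 against 135 CPM in both mutant libraries. *Rrp9*, for a protein of the U3 snoRNP, was at 39.4 and 39.2 against 34.8 and 43.9 CPM. The log2FCs of these 3 genes lay between -0.02 and 0.01. The *Nop56* value is uncertain, since 37.6% of its mRNA is shared with other genes and 5 snoRNA genes lie within it. *Fbl*, for the methyltransferase fibrillarin, had 52 and 56 reads in wildtype and 70 and 67 reads in mutant libraries, which is too few for a firm value (log2FC 0.29, SE 0.44, adjusted p = 0.690 with edgeR). Of the stretches of 50 bases in its mRNA, 73.0% occur in other genes, and reads that align to several places were not counted, so the low *Fbl* count does not measure how much fibrillarin mRNA the retina has.

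The H/ACA set had the lowest summed level relative to wildtype, at 250 and 237 CPM in wildtype and 213 and 231 CPM in mutant libraries, a ratio of 0.909. *Dkc1*, for the pseudouridine synthase dyskerin, was at 86.04 and 84.99 against 77.3 and 76.1 CPM. Both mutant values lay below both wildtype values, with a log2FC of -0.16 (SE 0.07, adjusted p = 0.167 with edgeR). *Nop10*, for a small core protein of the same particle, was at 106 and 94.3 against 80.6 and 92.6 CPM, and its log2FC of -0.21 (SE 0.10, adjusted p = 0.159 with edgeR) was the lowest of the 38. Both passed the adjusted p without reaching 1.4-fold. *Dkc1* lost that pass without any 1 of the 4 libraries, while its log2FC stayed between -0.17 and -0.14. *Nop10* lost it without the first wildtype or the first mutant library, with log2FCs of -0.12 and -0.11. Without the second mutant library the log2FC of *Nop10* was -0.32. *Nhp2* was at 47.8 and 51.1 against 44.5 and 52.1 CPM and overlapped. *Gar1* was at 10.3 and 6.98 against 10.5 and 9.60 CPM, so its estimate rests on the second wildtype library. The log2FC of *Gar1* was 0.21 (adjusted p = 0.473 with edgeR), -0.03 without that library, and 0.53 without the first wildtype library, where *Gar1* was called (adjusted p = 0.0942).

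**Figure D4:**
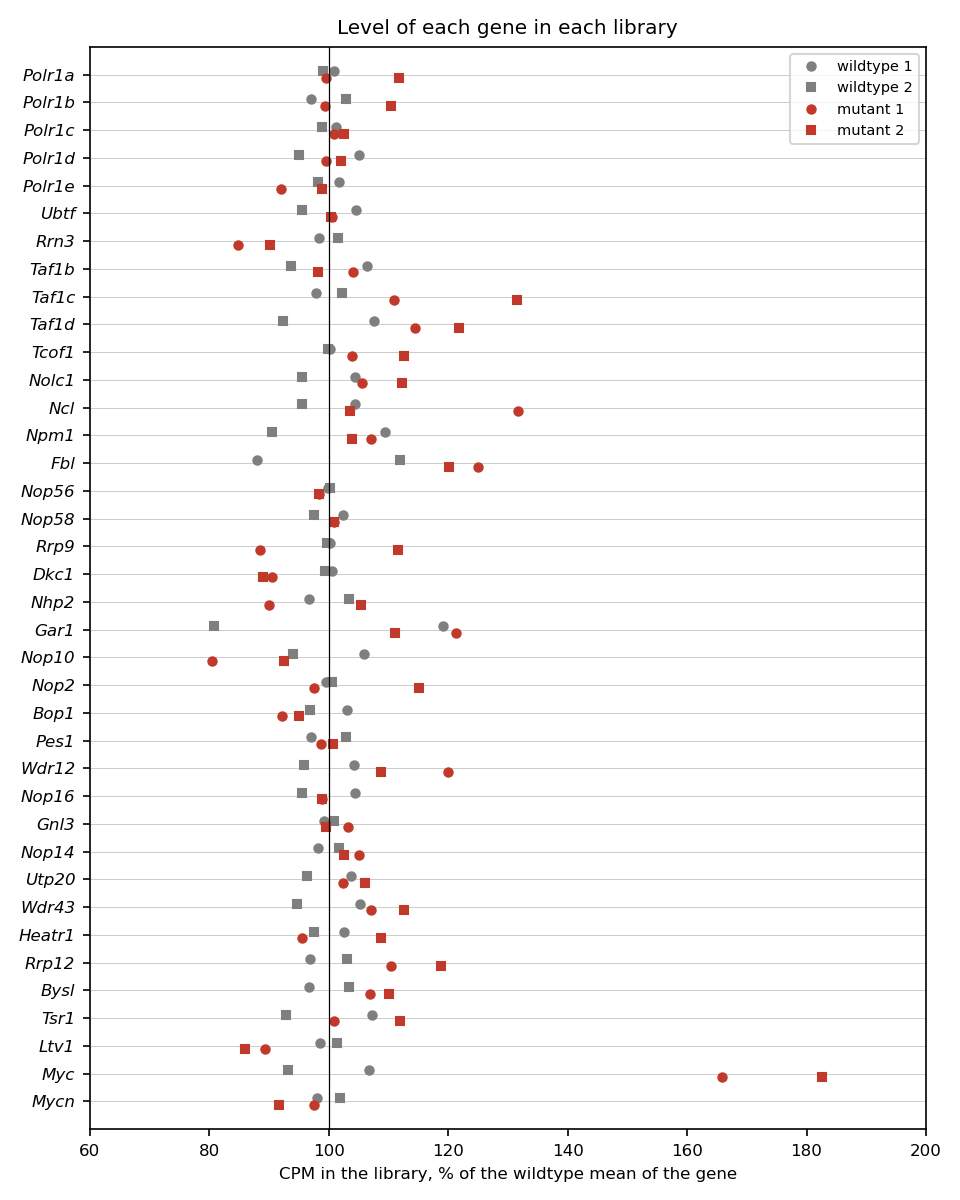
Level of each of the 38 genes in each library, as a percent of the wildtype mean of that gene, with wildtype libraries in grey and mutant libraries in red. Most points of both genotypes lie close to 100%, and *Myc* stands apart, at 30.5 and 33.6 CPM in the mutant against 18.4 CPM in the wildtype mean.

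Among the 6 factors of the large subunit none was called, and the summed level was 376 and 374 CPM in wildtype and 372 and 386 CPM in mutant libraries. *Bop1*, *Pes1* and *Wdr12* encode the 3 parts of 1 complex that is needed for processing of the large subunit rRNA. *Wdr12* was at 20.5 and 18.8 against 23.6 and 21.4 CPM, with both mutant values above both wildtype values and a log2FC of 0.19 (SE 0.11, adjusted p = 0.243 with edgeR). *Bop1* was at 77.5 and 72.8 against 69.3 and 71.4 CPM, with both mutant values below and a log2FC of -0.10 (adjusted p = 0.429). *Pes1* was at 88.9 and 94.3 against 90.4 and 92.2 CPM. Of the *Pes1* mRNA, 24.1% is shared with other genes, which makes its value uncertain. The 3 genes of this complex thus had no common direction, and none passed the test. *Nop2*, for an rRNA methyltransferase whose promoter holds both motifs shown above, was at 86.4 and 87.3 against 84.7 and 100 CPM, and its log2FC of 0.09 was -0.04 without the second mutant library. *Nop16* and *Gnl3*, for an assembly factor and for nucleostemin, had log2FCs of -0.02 and 0.02. *Nop16* was at 36.3 and 33.2 against 34.3 CPM in both mutant libraries, and *Gnl3* was at 66.8 and 68.0 against 69.5 and 67.0 CPM.

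Of the 8 factors of the small subunit, none was called, and 7 had positive log2FCs. *Rrp12*, for a factor of nuclear export and maturation, was at 69.3 and 73.7 against 79.0 and 84.9 CPM, a log2FC of 0.20 (SE 0.08, adjusted p = 0.116 with edgeR). *Ltv1*, for a late assembly factor of the small subunit, was at 44.2 and 45.4 against 40.02 and 38.5 CPM, a log2FC of -0.19 (SE 0.08, adjusted p = 0.124 with edgeR). The groups overlapped for neither gene, and both changes stayed under 1.4-fold. Both genes lost the adjusted p without the first wildtype, the second wildtype or the second mutant library. Their log2FCs in these fits were 0.16, 0.25 and 0.14 for *Rrp12* and -0.21, -0.17 and -0.17 for *Ltv1*. *Bysl* and *Wdr43* had log2FCs of 0.12 and 0.14 (adjusted p of 0.325 and 0.292 with edgeR). *Tsr1*, which has an E-box in its promoter, was at 79.0 and 68.4 against 74.3 and 82.5 CPM, a log2FC of 0.09 that was -0.0062 without the second wildtype library, and 31.1% of its mRNA is shared with other genes. *Heatr1*, *Utp20* and *Nop14*, for early components of the processome, had log2FCs of 0.03, 0.06 and 0.05. *Heatr1* was at 178 and 169 against 166 and 189 CPM, and its log2FC turned negative without the second wildtype or the second mutant library, at -0.07 without the latter. The count of 7 positive values thus rests on single libraries for *Heatr1* and *Tsr1*. Summed, the 8 genes were at 747 and 714 CPM in wildtype and 744 and 793 CPM in mutant libraries, a ratio of 1.05.

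Genes with a promoter match had values on both sides of 0. The 7 genes with the Nrf1 core, with or without a free base, had log2FCs from -0.21 (*Nop10*) to 0.23 (*Ncl*), and the 7 genes with an E-box from -0.19 (*Rrn3*) to 0.14 (*Wdr43*). None of them was called. No test was made on these subsets.

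The other genes of the pathway, from lists of rRNA synthesis and processing factors outside the 38, were read in the same fit. Of 133 such genes, 1 was called lower and none higher (0.752%), with a median log2FC of -0.03. At an adjusted p of at most 0.2 and any fold, 21 (15.8%) were lower and 10 (7.52%) higher, both shares below the 19.5% and 20.4% of all tested genes. None of the 11 further genes of Pol I and its factors was called. *Polr2f*, for a subunit shared by the 3 nuclear RNA polymerases, was at 36.2 and 38.6 CPM in wildtype and at 28.1 and 27.1 CPM in mutant libraries, a log2FC of -0.44 (SE 0.09, adjusted p = 0.00764 with edgeR) that fell just short of 1.4-fold. Of 43 further small subunit factors none was called, and *Nob1*, for the endonuclease that makes the end of the small subunit rRNA, had the lowest log2FC, -0.47 (adjusted p = 0.00467). Of 55 further large subunit factors none was called, with log2FCs from -0.28 (*Tma16*) to 0.29 (*Ddx51*). In addition, none of 22 genes for Pol III and 5S rRNA was called.

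The exosome and ribonuclease list, whose products trim and degrade rRNA precursors, had a lower median than the 38 genes, though this difference was not tested. Of its 24 genes, 20 had negative log2FCs, the median was -0.17, and 10 (41.7%) were lower and none higher at an adjusted p of at most 0.2 and any fold, against 19.5% and 20.4% of all tested genes. The 1 gene called was *Rpp25*, a subunit of RNase P and RNase MRP, at 0.891 and 0.701 CPM in wildtype and at 0.421 and 0.338 CPM in mutant libraries. Its log2FC of -1.07 (SE 0.50, adjusted p = 0.171 with edgeR) rests on 28 to 78 reads, and the call was lost in each fit that left out a library. *Exosc8*, for a ring subunit of the exosome, was at 48.4 and 46.6 against 34.3 and 33.9 CPM, a log2FC of -0.48 (SE 0.08, adjusted p = 0.00306 with edgeR). It missed 1.4-fold by a small margin.

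**Figure D5:**
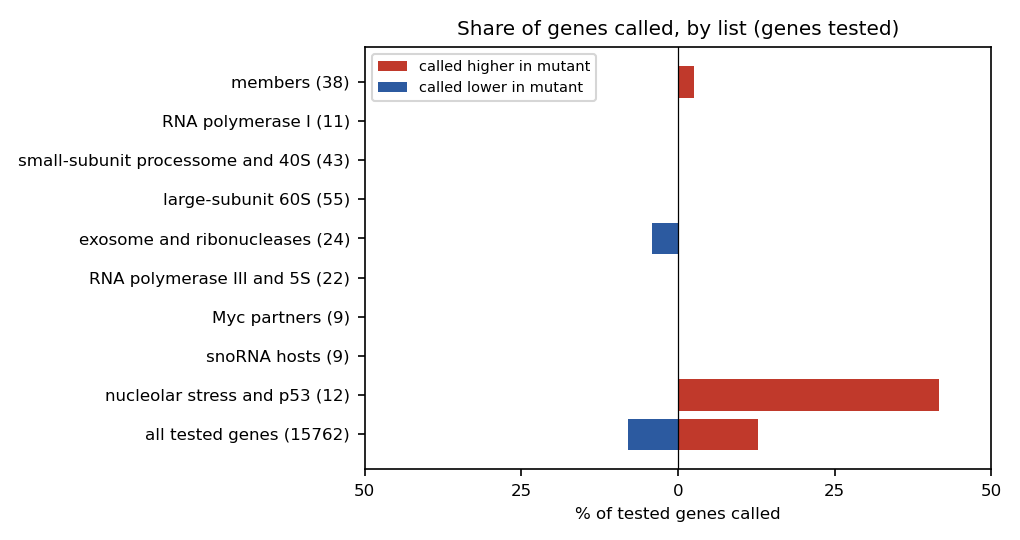
Percent of tested genes called lower (blue, to the left) and higher (red, to the right) in mutant libraries, for the 38 genes, 8 further lists and all tested genes, with the number of genes tested in brackets. The 38 genes had none called lower and 1 higher, against 8.04% and 12.8% of all tested genes, and the p53 and nucleolar stress list had 5 of 12 called higher.

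The host genes of snoRNAs and the genes of a p53 and nucleolar stress list were read as well. None of 9 snoRNA host genes tested was called, with a median log2FC of 0.23, and 5 (55.6%) were higher and 1 (11.1%) lower at an adjusted p of at most 0.2 and any fold, against 20.4% and 19.5% of all tested genes. *Gas5*, a host of many box C/D snoRNAs, was at 331 and 307 CPM in wildtype and at 372 and 398 CPM in mutant libraries (log2FC 0.27, adjusted p = 0.0485 with edgeR). Among the 38 genes, 8 hold 29 snoRNA genes within them, with *Taf1d*, *Nop56*, *Nop58* and *Ncl* holding 8, 5, 4 and 3. Of the 12 genes on the p53 and nucleolar stress list, 5 (41.7%) were called higher, against 12.8% of all tested genes. They were *Cdkn1a*, *Pmaip1*, *Sesn2*, *Ccng1* and *Bbc3*, with log2FCs of 3.01, 3.84, 1.70, 1.00 and 0.95. *Pmaip1* had 30 and 17 reads in wildtype and 270 and 418 reads in mutant libraries. The cause of these changes was not tested. *Trp53* and *Mdm2*, for p53 and its ligase, had log2FCs of 0.07 and 0.10 and were not called. Of the genes for ribosomal proteins that bind Mdm2, *Rpl11* had only 156 to 207 reads per library. Its log2FC was 0.28 (SE 0.26, adjusted p = 0.488 with edgeR). *Rpl5* and *Rpl23* had log2FCs of -0.19 and -0.16 (adjusted p of 0.190 and 0.175 with edgeR), under 1.4-fold. Sequence that these ribosomal protein genes share with other genes was not measured, so their counts may not give their mRNA levels.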

How the data were processed

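Pooled RNA of E13.5 retinas, 2 wildtype and 2 *Nrf1* f/f;Six3-Cre pools, was sequenced by the authors as paired-end reads after NuGen cDNA synthesis, aligned to mm10 with Tophat and counted per gene with HTSeq. The authors deposited whole-number read counts and a second table of normalized log2 values, whose method is not given in the sources used here, nor is the annotation release or the use of strand in counting. HTSeq's summary rows, from 74.0% to 75.0% of all entries, were left out.

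Genes passing edgeR's filterByExpr at a minimum count of 10 (15762) were scaled with TMM factors (0.992 to 1.02) and compared in R 4.3.3 with edgeR 4.0.16 (quasi-likelihood test), with Benjamini-Hochberg adjustment over all of them. The thresholds for a call are those of the study's methods. CPM are counts scaled by these library sizes, and RPKM divide them by the exon length in GENCODE vM21. Alternatives were DESeq2 1.42.0, other scalings, filters and thresholds, limma 3.58.1 on the deposited log2 values, a replicate block and each library left out. Pseudocounts were not varied, because the deposited values were already log2. Replicates differed by more than counting noise, with chi-squares per gene of 45.8 in the wildtype and 56.8 in the mutant pair. All 38 genes are named, with the value in every library for called genes, for genes whose sign turned with a library left out and for at least 1 gene of each role. The genes and lists were chosen with earlier results of these data known.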

Additional observations from a re-analysis of the deposited data

How the results depend on the processing

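*Myc* was called, and called higher, in the main comparison, in 12 alternatives and in 4 fits that left out a library, with log2 fold changes from 0.64 to 0.91. With no minimum fold, 4 of the 38 genes were lower (*Rrn3*, *Dkc1*, *Nop10* and *Ltv1*) and 5 higher (*Taf1c*, *Taf1d*, *Ncl*, *Rrp12* and *Myc*). Of the 9 genes that passed the adjusted p at any fold, 8, all but *Myc*, lost it in at least 1 fit with a library left out. With a library left out, the number called higher was 1 to 2, the second being *Gar1*. The median log2 fold change of the 38 genes was 0.0821 with upper-quartile factors, which moved the median of all genes to 0.04, and 0.01 to 0.08 with a library left out. The sign turned in some fit for 17 of the 38 genes, none with a log2 fold change over 0.21 in the main comparison. Under alternatives, values turned with library size only to -0.0101 for *Polr1d*, -0.0138 for *Ubtf*, -0.0045 for *Taf1b*, -0.0076 for *Nop58* and -0.00040 for *Gnl3*. With upper-quartile factors they turned to 0.0164 for *Nop56*, 0.0395 for *Rrp9*, 0.0070 for *Nhp2*, 0.0351 for *Pes1*, 0.0236 for *Nop16* and, outside the 38, to 0.00706 for *Max* and 0.0060 for *Nrf1*. *Rrp9*, at -5.0e-05 in the main comparison, was 0.0050 with DESeq2, 0.00018 without rRNA genes, 0.00067 without other-tissue markers in the scaling and 0.0058 with at least 10 counts in every library. *Pes1* was 0.00052 with DESeq2, 0.0015 with at least 10 counts and 0.00038 with limma on the deposited values. Ranges that crossed 0 with a library left out were -0.0073 to 0.16 for *Polr1a*, -0.0098 to 0.14 for *Polr1b*, -0.0561 to 0.0888 for *Polr1d*, -0.0534 to 0.0771 for *Ubtf*, -0.0688 to 0.115 for *Taf1b*, -0.0497 to 0.22 for *Npm1*, -0.0178 to 0.0511 for *Nop58*, -0.179 to 0.159 for *Rrp9*, -0.153 to 0.0777 for *Nhp2*, -0.0334 to 0.53 for *Gar1*, -0.0390 to 0.20 for *Nop2*, -0.0427 to 0.0421 for *Pes1*, -0.0752 to 0.0538 for *Nop16*, -0.0067 to 0.0437 for *Gnl3*, -0.0685 to 0.122 for *Heatr1*, -0.0062 to 0.20 for *Tsr1*, -0.138 to 0.0904 for *Max* and -0.0109 to 0.148 for *Trp53*. The cause was not tested. The *Rn45s* ratio was 2.38 against the reads other than *Rn45s* and 1.95 to 2.89 with a library left out. Over all genes, 1268 were called lower and 2024 higher, against 743 and 1188 when tested against a fold of 1.4, 723 and 945 with limma on the deposited values, and 3076 and 3211 with no minimum fold.

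The labels give both groups the same replicate numbers, and nothing says that a number marks a shared litter or day. Deviations of same-numbered libraries had a correlation of -0.0025 over 15762 genes and 0.194 over the 38. With 2 pairs and no label for a shared source, the numbers were not taken to pair the libraries. With the replicate number as a block, 0 of the 38 genes were called lower and 1 higher and their median was 0.04 on the log2 scale. Then 1256 and 1970 of all genes were called. The block changed no call among the 38. Outside the 38, *Rpp25* lost its call in 9 fits, with the block, DESeq2, limma, either stricter threshold or a library left out. Its log2 fold change was -0.21 with limma on the deposited values and -1.23 to -0.88 in the rest of these.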
